A study of Arabidopsis thaliana with 2 samples.

Results

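The genes described here are 5 Arabidopsis thaliana genes whose products move ions, metabolites or membrane vesicles, or are named with them in the tables: the cation-chloride cotransporter CCC1 (AT1G30450), the S-adenosylmethionine carrier SAMC2 (AT1G34065), the adaptor subunit PAT2 (AT3G55480), the coatomer subunit AT1G52360 and the dehydration-stress family gene AT1G69450. They were found by their gene identifiers in 5 deposited tables of splicing events and hold 6 of the 343 listed events, in 5 of 281 genes. 5 of the 6 events are in the intron retention table, which has 214, and 1 is in the table of alternative 5' splice sites, which has 43. The 5 genes were chosen by their listed change in inclusion share in these same tables, and by their annotated function, so their changes are given as a description and no test of them is read as support. The adjusted p-values (FDR) of the 6 events in the authors' deposited table ran from 5.46e-12 to 0.00447.

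RNA came from cotyledons, the seed leaves, of the lefko mutant and of wild type, both of the Col-0 ecotype. There was 1 sample per genotype. The mutant is lefko1 in the protocol and the tables and lefko2 in its sample title, and the source label says seeds. The sources used here do not name the gene altered in lefko. Seedlings grew upright on medium with 1% sucrose at 22 °C, with 16 h of light at 100 µmol per square metre and second and 8 h of darkness. Each event has reads counted for the form with the alternative stretch (inclusion reads) and for the form without it (skipping reads). The rule by which they were counted is not known. Both kinds are listed as 3 counts per genotype, called count sets here, and nothing says whether the sets are separate plants, libraries or runs. SDs and SEs below therefore cover only the spread between these sets. With 3 sets per genotype the smallest p of an exact permutation test is 0.1, and none was run. Reads over all listed events came to 168946 to 187225 per set in wild type and 166819 to 178604 in the mutant. In bulk RNA, fewer cells of a type and less RNA per cell cannot be told apart, and the tables hold no unlisted gene by which the tissue could be checked.

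Splicing removes introns between a 5' splice site, usually beginning with GT, and a 3' splice site, usually ending with AG. Intron retention is the most common kind of alternative splicing in plants. A kept intron can bring a stop codon into the reading frame, and a stop codon well upstream of a later exon junction can mark a message for nonsense-mediated decay. The proteins here act at different membranes. Cation-chloride cotransporters couple the movement of sodium or potassium to chloride. S-adenosylmethionine carriers bring the methyl donor S-adenosylmethionine into organelles. The AP-3 adaptor sorts cargo to the vacuole, and the COPI coat, made of coatomer, forms vesicles that travel between Golgi and endoplasmic reticulum.

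The sequences that decide the reading frame are shown first, 5' to 3' on the strand of the gene, read from the TAIR10.1 genome. For CCC1, SAMC2 and PAT2 the capitals mark the first stop codon in the frame of the upstream exon. For AT1G69450, in whose frame no stop occurs within the intron, and for the intron listed under AT1G52360 the capitals mark the GT or AG at the splice sites.
CCC1 intron 7, first 120 of 378 nt, chr1:10765586-10765705, plus strand: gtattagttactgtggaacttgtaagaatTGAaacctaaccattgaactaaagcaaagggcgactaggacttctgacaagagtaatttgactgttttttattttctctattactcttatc
SAMC2 intron 6, all 215 nt, chr1:12399778-12399992, minus strand: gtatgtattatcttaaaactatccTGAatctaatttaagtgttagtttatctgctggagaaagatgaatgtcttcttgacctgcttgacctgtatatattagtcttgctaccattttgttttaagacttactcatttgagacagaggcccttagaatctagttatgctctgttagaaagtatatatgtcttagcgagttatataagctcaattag
PAT2 intron 2, last 30 of 72 nt, chr3:20570721-20570750, minus strand: ctacatgattagcttctatTGAttgtgtag
AT1G69450 intron 8, all 81 nt, chr1:26107619-26107699, minus strand: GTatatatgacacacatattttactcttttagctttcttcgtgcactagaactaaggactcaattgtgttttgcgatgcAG
Intron listed under AT1G52360, first 30 of 446 nt, chr1:19506572-19506601, plus strand: GTtatcttcatccccagttactttgatttt
The same intron, last 30 nt, chr1:19506988-19507017, plus strand: tcaagattgtttttttaccatcttctgcAG
The intron left by the downstream 5' splice site there, first 30 nt, chr1:19506766-19506795, plus strand: GTgcgttgctttgattactcggttcttata

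The inclusion share, the percentage of an event's reads that are inclusion reads, was higher in the mutant in 6 of 6 events. Among all listed events it was higher in 77.8%, and among listed retention events in 83.2%. The median change of the 6 events was 30.1 percentage points, beside 17.7 over all 343. Wild-type and mutant sets occupied separate ranges in 6 of 6 events, beside 91.8% of all listed events. A rise of at least 25 points, which 22.4% of listed retention events had, was found in all of the retention events but that listed under AT1G52360. Because the changes entered the choice of genes, nothing is read from these counts. Ranked by change among the 160 retention events whose sets all held 20 reads or more, PAT2 was number 3, SAMC2 number 5, CCC1 number 6, AT1G69450 number 7 and AT1G52360 number 105. AT5G54710, at number 4 with a rise of 30.7 points, and AT2G23890, at number 8 with 29.8, ranked among and just after them.

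**Figure D1:**
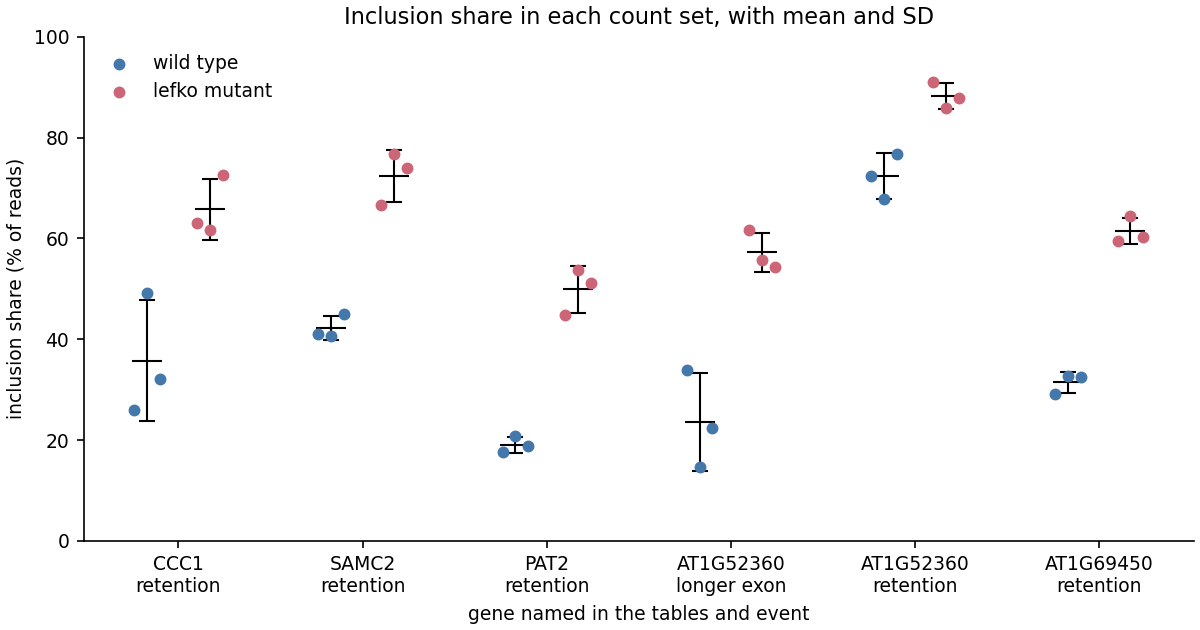
Inclusion share in percent of reads for the 6 events, with 1 point per count set (blue for wild type, red for the lefko mutant) and bars for the mean and SD of 3 sets. In each event all mutant points lie above all wild-type points, and the smallest gap, 9.06 points, is that of retention listed under AT1G52360.

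**Figure D2:**
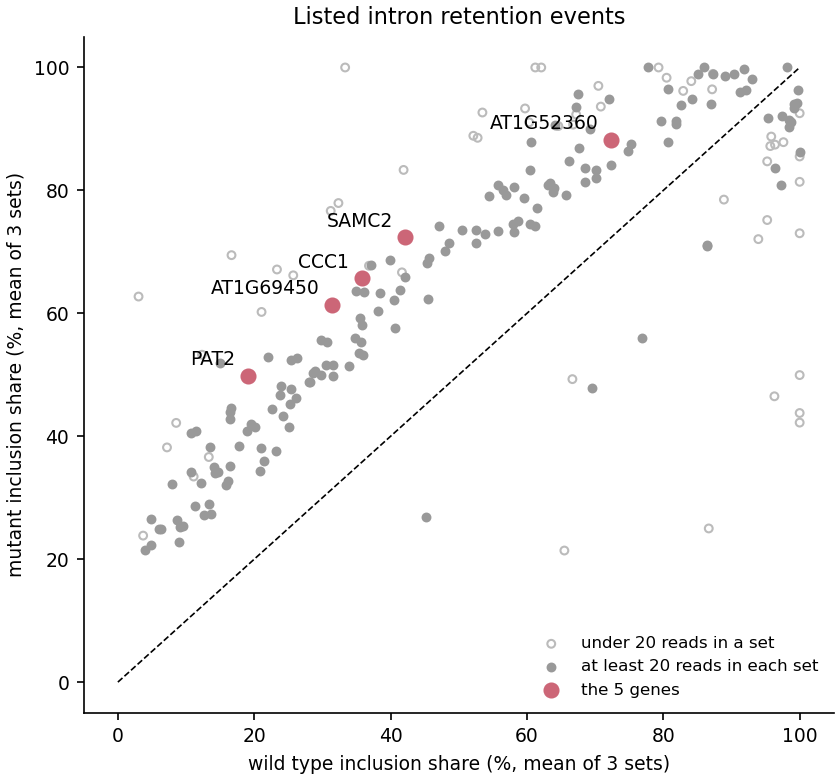
Mean inclusion share of the 214 listed retention events in wild type (horizontal axis, percent) and in the mutant (vertical axis, percent), with events of under 20 reads in a set drawn open and the dashed line marking equal shares. PAT2, AT1G69450, CCC1 and SAMC2 lie near the upper edge of the filled points, and AT1G52360 lies further right, at 72.3% in wild type.

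CCC1 is described in the reference annotation as a member of the cation-chloride co-transporter family and was the family's only gene found there by name. At intron 7 the 3 wild-type sets held 15, 29 and 19 inclusion reads and 43, 30 and 40 skipping reads. The 3 mutant sets held 68, 53 and 61 inclusion reads and 40, 33 and 23 skipping reads. The shares were thus 25.9%, 49.2% and 32.2% in wild type and 63.0%, 61.6% and 72.6% in the mutant. The second wild-type set stood above the others, and the groups still did not overlap. The mean went from 35.7% ± 12.04 (SD, 3 sets) to 65.7% ± 5.998, a rise of 30 points (SE 7.77). Over summed reads the share was 35.8% in wild type (exact 95% interval 28.7% to 43.4%) and 65.5% in the mutant (59.6% to 71.1%). These intervals cover counting error only and not the spread between sets. The wild-type sets at 25.9% and 49.2% and the mutant set at 72.6% lay outside them.

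Intron 7 of CCC1, 1 of 13 introns in the longest form, spans 10765586 to 10765963 on chromosome 1 and lies within coding sequence. All 4 annotated transcripts splice it out and none keeps it. It follows 249 complete codons and 1 further base. A message that kept it would read 10 codons that differ from the spliced form and then reach the TGA shown above, at codon 260. The reading frame would end after 259 residues, which is 26.6% of the length of the 975-residue protein. The stop would lie 574 nt before the next exon junction, with 6 junctions after it. In the annotated transcript with a shorter protein, of 844 residues, the same TGA would be codon 129.

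SAMC2 belongs to the mitochondrial carrier family of membrane proteins and is named for S-adenosylmethionine. Its wild-type sets held 16, 13 and 22 inclusion reads and 23, 19 and 27 skipping reads at intron 6. Its mutant sets held 66, 56 and 51 inclusion reads and 33, 17 and 18 skipping reads. The 3 wild-type shares, 41.0%, 40.6% and 44.9%, lay close together, and the 3 mutant shares, 66.7%, 76.7% and 73.9%, were all above them. The mean went from 42.2% ± 2.36 (SD, 3 sets) to 72.4% ± 5.18, a rise of 30.2 points (SE 3.29). The gap between the highest wild-type and the lowest mutant set was 21.8 points.

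Intron 6 of SAMC2 spans 12399778 to 12399992 on chromosome 1, and both annotated transcripts splice it out. It begins exactly between codons, after codon 163. With the intron kept, 8 new codons would precede the TGA shown above, at codon 172. The frame would end after 171 residues, 49.6% of the 345-residue protein, with 5 exon junctions further downstream and the nearest 242 nt away. Of the 11 introns of this transcript it is the longest, at 215 nt against a median of 101 nt. It also has the lowest 3' splice site score of the 11, which is described with the other sequence features below.

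PAT2 is a putative beta subunit of the AP-3 adaptor complex, and the annotation credits it with the formation and function of lytic vacuoles. It had the fewest reads of the 5 genes, between 24 and 41 per set. The wild-type sets held 6, 5 and 6 inclusion reads against 28, 19 and 26 skipping reads. In the mutant the inclusion reads were 17, 22 and 21 and the skipping reads 21, 19 and 20. The shares were 17.6%, 20.8% and 18.8% in wild type and 44.7%, 53.7% and 51.2% in the mutant, with no overlap. The mean went from 19.1% ± 1.62 (SD, 3 sets) to 49.9% ± 4.61, a rise of 30.8 points (SE 2.82). At this depth a single set has a wide exact 95% interval, for example 7.13% to 42.2% around 20.8%. Over summed reads the intervals were 11.4% to 28.5% in wild type and 40.7% to 59.3% in the mutant, around 18.9% and 50%.

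Intron 2 of PAT2, of 10 in the gene, occupies bases 20570721 to 20570792 of chromosome 3. Its length of 72 nt is a multiple of 3, but its frame is not open. After 97 complete codons and 2 further bases, the retained form would read 21 codons that hold intron bases. The first, AAG, spans the border and is the same in the spliced form. The frame would then stop at the TGA near the end of the intron, at codon 119. The frame would end after 118 residues, 10.6% of the 1115-residue protein, with 8 junctions after the stop. The annotation holds 1 transcript of each kind. The transcript that keeps the intron is given a start codon further downstream and a protein of 987 residues, which equals the longer protein from residue 129 on. The retained form of PAT2 therefore has an annotated protein that lacks the first part of the subunit, unlike those of CCC1 and SAMC2, for which no retaining transcript is annotated.

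AT1G69450 is annotated as an early-responsive to dehydration stress protein (ERD4), a family that includes cation channels opened by osmotic stress. It was the most deeply read of the 5 genes. The wild-type sets held 79, 81 and 80 inclusion reads and 193, 166 and 166 skipping reads. The mutant sets held 187, 186 and 167 inclusion reads and 127, 103 and 110 skipping reads. Both forms differed without overlap, inclusion reads being higher and skipping reads lower in every mutant set. The share went from 31.5% ± 2.09 (SD, 3 sets) to 61.4% ± 2.59, a rise of 29.9 points (SE 1.92). This was the smallest SE of the 6 events, and its FDR in the authors' deposited table, 5.46e-12, was the lowest.

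Retention would not end the AT1G69450 protein. Intron 8, at 26107619 to 26107699 on chromosome 1, is 81 nt long, begins between codons after codon 577 and holds no stop codon in that frame. Keeping it would insert 27 codons and leave the rest of the frame as it was, giving 738 residues in place of 711. The reference annotates exactly this form: of 3 transcripts, 2 splice the intron and 1 keeps it as coding sequence, with a protein of 738 residues. The other frames of the intron do hold stop codons, 3 in the second and 1 in the third.

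**Figure D3:**
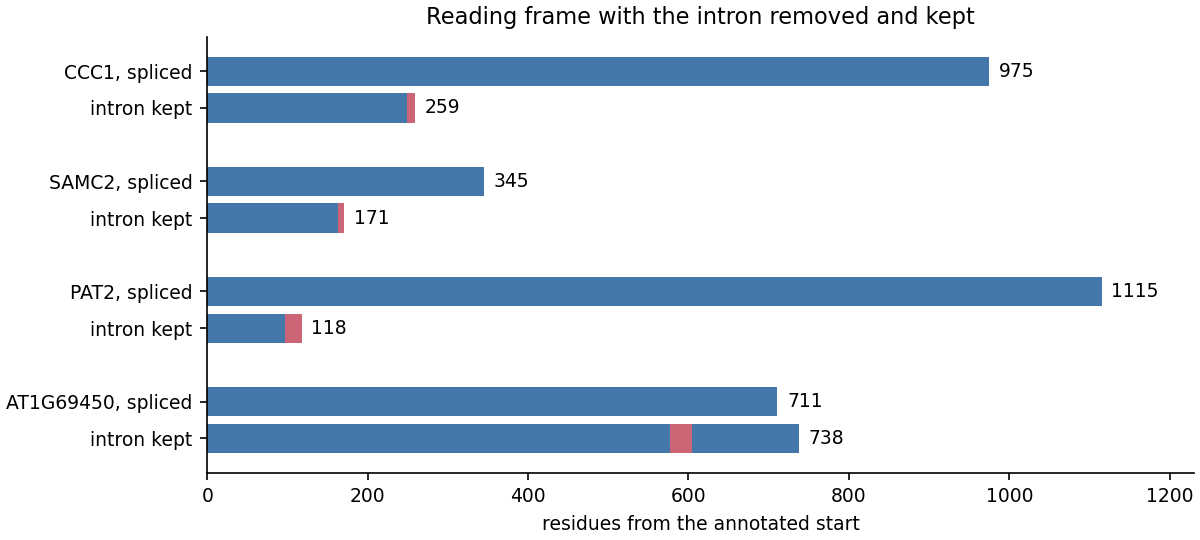
Length in residues of the reading frame with the intron removed and with it kept, for the 4 genes whose intron interrupts coding sequence, in the transcript with the longest protein. Blue is sequence shared with the spliced form and red is sequence read from the intron or from the codon that spans its border. Retention would end CCC1 after 259, SAMC2 after 171 and PAT2 after 118 residues, and would lengthen AT1G69450 from 711 to 738.

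The 2 events listed under AT1G52360, which encodes a beta' subunit of coatomer, do not lie in that gene as annotated. The gene ends at 19506309 on chromosome 1, while the intron of both events spans 19506572 to 19507017 and starts 263 nt after that end. The junction is intron 1 of AT1G52370, a gene for a ribosomal protein L22p/L17e family protein, which starts 46 nt after the coatomer gene on the same strand. The first exon in the tables runs from 19505699, where the last exon of the coatomer gene starts, to 19506571, where exon 1 of AT1G52370 ends. No annotated transcript has such a joined exon. AT1G52370 itself has 0 listed events. Of the 214 retention events, 4 have a junction annotated only in a gene other than the one named, this one and 3 listed under REF4. The tables thus give no event within the annotated coatomer gene, and the values below are those of the intron of AT1G52370.

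**Figure D4:**
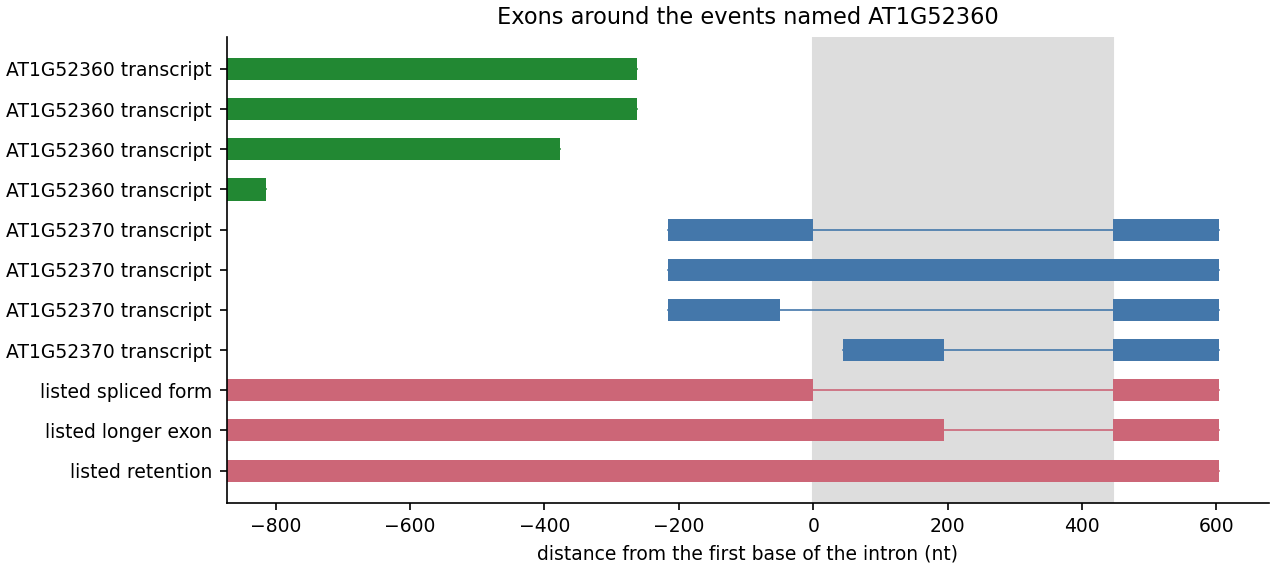
Annotated exons of AT1G52360 (green) and AT1G52370 (blue) and the forms listed in the tables (red), against the distance in nt from the first base of the intron, which is shaded. Bars are exons, lines are introns and the left edge is where the listed exon starts. The green exons end 263 nt before the first base of the intron or earlier, and the shaded intron lies between or within exons of AT1G52370.

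Retention of this intron was counted from 113, 86 and 126 inclusion reads in the wild-type sets and 231, 213 and 225 in the mutant sets. The skipping reads were 43, 41 and 38 in wild type and 23, 35 and 31 in the mutant. The share was high in both genotypes, 72.3% ± 4.56 (SD, 3 sets) and 88.2% ± 2.55, a rise of 15.9 points (SE 3.01). The event of the alternative 5' splice site uses the same skipping reads in every set, so the 2 events are not independent. Its inclusion reads, for an exon longer by 194 nt, were 22, 7 and 11 in wild type and 37, 44 and 37 in the mutant. The shares of the longer exon were 33.8%, 14.6% and 22.4% in wild type and 61.7%, 55.7% and 54.4% in the mutant, a rise of 33.6 points (SE 6.02). They leave out the retention reads of the same intron, in sum 325 in wild type and 669 in the mutant. They are thus not shares of all messages. Reads for the longer exon came to 12.1% ± 6.38 (SD, 3 sets) of the retention reads in the wild-type sets and 17.7% ± 2.56 in those of the mutant, and the first wild-type set, at 19.5%, lay within the range of the mutant sets.

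The annotation of AT1G52370 holds other ways to produce reads in this intron. Of its 4 transcripts, 1 has exactly this intron and 1 keeps it whole. Another uses a 5' splice site further upstream, at the end of an exon that closes at 19506522. The remaining one starts inside the intron, with a first exon from 19506617 to 19506765, and that end is the downstream 5' splice site of the listed longer exon. Reads of a message that starts there, of the longer exon and of whole-intron retention cannot be told apart from these counts. The intron lies in the 5' untranslated region, 34 nt before the start codon, so retention would change no residue of the 269-residue protein. It would add 5 ATG triplets upstream of the start codon, each of which opens a frame that stops before the start codon. The longer exon would add 2, which also stop before it.

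Inclusion reads were higher in the mutant in every event, while skipping reads differed less. The ratio of mutant to wild-type inclusion reads was 2.89 for CCC1, 3.39 for SAMC2, 3.53 for PAT2, 2.25 for AT1G69450, and 2.06 for retention and 2.95 for the longer exon listed under AT1G52360. The ratio of skipping reads was 0.850 for CCC1, 0.986 for SAMC2, 0.822 for PAT2, 0.730 for AT1G52360 and 0.648 for AT1G69450. The skipping reads of AT1G52360 and AT1G69450 were lower in each mutant set than in each wild-type set, and those of CCC1, SAMC2 and PAT2 overlapped between genotypes. The spliced form of SAMC2 had a mean of 23 reads per set (SD 4) in wild type and of 22.7 (SD 8.96) in the mutant, a difference well within the spread, and its sign depended on which set was left out. Over all 343 events the median ratio was 2.02 for inclusion reads and 0.904 for skipping reads. All reads of an event together were 1.15 times (AT1G69450) to 2.01 times (SAMC2) as many in the mutant, beside a median of 1.39 over all events. No total for a whole library is known here. The RBCS1B gene alone took 23% of the listed wild-type reads and 3.58% of the mutant reads, so the listed sums are no measure of depth, and whether read totals reflect gene expression was not tested.

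**Figure D5:**
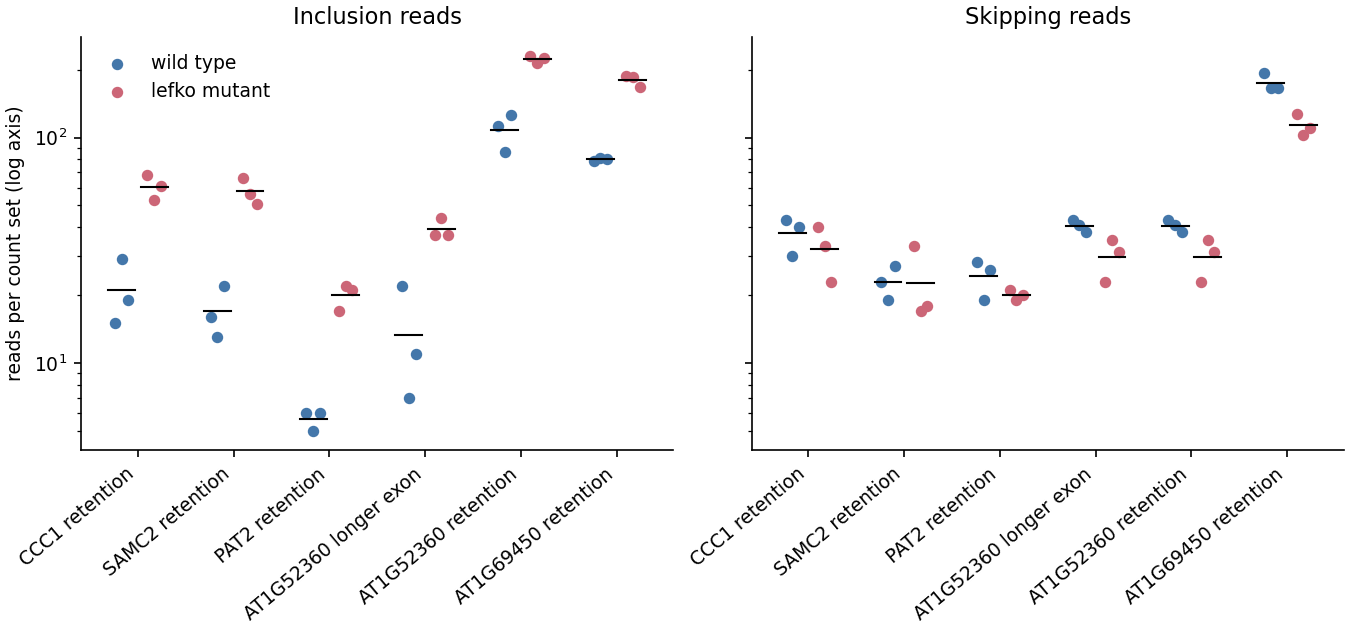
Inclusion reads (left) and skipping reads (right) per count set on a log axis for the 6 events, with 1 point per set and a line at the mean of 3 sets. Mutant inclusion reads lie above wild type in each event, while skipping reads overlap for CCC1, SAMC2 and PAT2. The skipping reads of both events of AT1G52360 are the same reads.

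Odds are the number of inclusion reads per skipping read. On this scale retention listed under AT1G52360 stood closer to the other events than in percentage points. The other events were not closer to each other: their rises ran from 29.9 to 33.6 points. The odds were 3.40 times higher in the mutant for CCC1, 3.44 times for SAMC2, 4.29 times for PAT2 and 3.47 times for AT1G69450. For AT1G52360 they were 2.82 times higher for retention, despite the smaller rise in points from its high wild-type share, and 4.04 times for the longer exon. Limma across all 343 events put the differences in log2 odds between 1.52 (SE 0.275) for retention of AT1G52360 and 2.14 (SE 0.413) for its longer exon. It called 72% of all listed events higher in the mutant at an adjusted p under 0.05. For the 5 genes no p is given, since they were chosen by these changes and the sets come from 1 sample per genotype.

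The introns differed in length and in splice site scores. Their lengths were 72 nt in PAT2, 81 in AT1G69450, 215 in SAMC2, 378 in CCC1 and 446 in AT1G52370, on both sides of the median of 157 nt over the 214 listed retention events. PAT2 has its shortest intron retained, and SAMC2 and AT1G52370 their longest. GC content was similar, from 32.3% to 35.8%, beside a median of 33.3% over the listed retention events. All 5 begin with GT and end with AG. Matches to the average splice site were scored as summed log2 odds over 131013 annotated introns, reading the last 3 bases of the exon and the first 6 of the intron for a 5' site, and the last 15 of the intron and the next exon base for a 3' site. The 5' site of the AT1G52370 intron scored 4.88 and was above 18.3% of annotated sites, whereas that of AT1G69450 scored 8.82 and was above 84.4%. The 3' site of SAMC2 scored 2.54, above 6.48% of annotated sites. The other 3' sites were above 49.2% to 77.8% of annotated sites.

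Genes of the same complexes and families were mostly not listed. Events are listed for only 281 genes in all, so most annotated genes of any kind are not listed. Nothing about these families is read from the counts below. Of 4 genes of the AP-3 complex only PAT2 had an event, and of both S-adenosylmethionine carriers only SAMC2. Of 14 coatomer genes only AT1G52360 is named in the tables, for the events whose junction lies in AT1G52370. Among 39 genes described as mitochondrial substrate or S-adenosylmethionine carriers, SAMC2 was again the only one. A table of listed events does not show whether the other genes were unchanged or too thinly read. The words early-responsive to dehydration describe 21 genes, among them heat shock proteins and a glutathione S-transferase, so these are not a single family. Of these genes 3 were listed, each with 1 retention event that was higher in the mutant, as were 83.2% of all listed retention events. Beside AT1G69450 these were ERD7 and AT4G22120, named here after their values were seen. ERD7 went from 21.5% ± 0.474 (SD, 3 sets) to 35.9% ± 2.88, with at least 623 reads in each set. AT4G22120, annotated like AT1G69450 as an ERD family gene, went from 53.5% ± 14.8 to 92.7% ± 0.317, with as few as 13 reads in a set.

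By a fixed rule, the most alike retention event was sought for each gene among 155 other events at or above 20 reads in every set, by the distance between the pairs of wild-type and mutant mean shares. For both CCC1 and AT1G69450 it was AT4G34150, a calcium-dependent lipid-binding family gene at 35.0% ± 2.23 and 63.6% ± 1.17, at a distance of 2.25 and 4.17 points. For SAMC2 it was AT5G17270, of the protein prenylyltransferase superfamily, at 39.9% ± 11 and 68.8% ± 9.56. For PAT2 it was the spliceosome-associated protein gene AT5G38600, at a distance of 4.18 points. For AT1G52360 it was AT1G54730, a major facilitator superfamily gene at 75.3% ± 5.02 and 87.5% ± 1.67.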

How the data were processed

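The submitters' processing notes name HISAT2 (version 2.0.4) and the TAIR10 genome. The event caller, and how it counted reads, is not given in the sources used here. Per the file headers, the authors' tables give inclusion and skipping read counts, whole numbers as deposited, with a p-value and an FDR per event. All 343 listed events have an FDR under 0.05. All 5 genes, and the lists of related genes, were chosen with earlier results of these data known.

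Exon starts count from 0 in the tables (750 of 921 exon entries matched an annotated exon after adding 1, and 1 without), so 1 was added. Gene structures and sequences are from RefSeq (TAIR10.1). Reading frames were translated from the annotated start codon in the transcript with the longest protein, and protein sequences were not used. Shares are means over 3 count sets. Exact (Clopper-Pearson) 95% intervals cover counting error only. Limma was fitted on log2 odds with 0.5 added to both counts, with Benjamini-Hochberg adjustment over 343 events, and was tested on simulated data. Named genes are the 5 genes, listed members of the related lists, the most alike events and up to 6 other transport genes by size of change among events with no fewer than 20 reads in any set. Same-numbered count sets did not deviate together (correlations 0.0525, -0.0271 and -0.0244 over 343 events). Tools were Python 3.11.15, NumPy 2.4.6, pandas 2.3.3, SciPy 1.17.1, matplotlib 3.10.9, R 4.3.3 and limma 3.58.1.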

Additional observations from a re-analysis of the deposited data

How the results depend on the processing

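The inclusion share stayed higher in the mutant in every event under every alternative tried. In each event every mutant set lay above every wild-type set. Leaving out a set, summing reads or halving inclusion reads could therefore not reverse the direction, and only the size of the rise could vary. Halving the inclusion reads was tried, as a counting rule over both intron borders would warrant. The rise was then 22.8 points for PAT2, 25.7 for AT1G69450, 27 for CCC1 and 30.2 for SAMC2. For AT1G52360 it was 26.6 points for the longer exon. For retention there the rise grew, from 15.9 to 22.2 points. Leaving out 1 count set gave 25.1 to 36.7 points for CCC1, 28.1 to 33.1 for SAMC2, 28.9 to 33.4 for PAT2, 28.5 to 30.9 for AT1G69450, and 13.6 to 18.2 (retention) and 29.1 to 38.7 (longer exon) for AT1G52360. The ratio of skipping reads for SAMC2 ran from 0.761 to 1.11 when 1 set was left out and passed 1 in 3 of 6 cases: 1.08 without wild-type set 3, 1.09 without mutant set 3 and 1.11 without mutant set 2. The stop falls at codon 129 in 1 of the 3 other CCC1 transcripts, the remaining ones keeping codon 260, and at codon 165 in the other SAMC2 transcript. With 1 event per junction 5 events remained, and with junctions in the named gene only, an alternative added after the data were seen, 4. With the count set number as a replicate block limma called 293 of the 343 listed events, against 302 without it, and no call on the chosen genes is read as support. PAT2 had the fewest reads, 24 in 1 set, and CCC1 the largest SE, 7.77 points.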

Other observations

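Words for transport or trafficking occur in the annotation of 1109 nuclear protein-coding genes, of which 14 others were listed, with 15 events, 14 higher and 1 lower in the mutant (77.8% of all listed events were higher). The lower event is that of CAC1, a biotin carboxyl carrier subunit of a plastid enzyme, matched by the word carrier and no transporter. The same holds for mtACP3, an acyl carrier protein, whose event is among the higher ones. These counts depend on the words searched, which missed PAT2, AT1G69450 and the major facilitator superfamily gene AT1G54730. Other listed transport or trafficking genes, higher or lower in the mutant, may be missed too. Among the 10 of these events whose sets all held 20 reads or more, 9 were higher, and the median change was 20.8 points. Of all retention events at these depths 143 of 160 were higher, with a median change of 18.6 points. The values of the 10 events lie near these, but the 10 include events of other classes, in CAC1 and AT4G21570. Retention went from 47.1% ± 1.20 (SD, 3 sets) to 74.2% ± 6.40 in AT3G59310, of solute carrier family 35, whose other listed retention event went from 45.5% ± 1.97 to 62.3% ± 2.92. The other genes named here are those with the largest changes at these depths. Retention went from 55.8% ± 6.82 to 80.9% ± 2.89 in CHX18, a cation/H+ exchanger. It went from 19.5% ± 11.6 to 42.1% ± 6.44 in the nitrate efflux transporter NAXT1, and from 25.5% ± 7.07 to 47.6% ± 3.39 in CLT2, a transporter required for glutathione homeostasis. In PDE135, a nucleobase transporter, it went from 14.3% ± 2.15 to 34% ± 2.04. In AT4G21570, of the organic solute transporter family, the longer exon of an alternative 5' splice site went from 78.2% ± 9.90 to 100%. These genes are listed events by construction, so their changes are a description.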
